A study of Mus musculus with 8 samples.

Results

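The *Nr4a* genes encode the 3 members of one family of orphan nuclear receptors, *Nr4a1* (Nur77), *Nr4a2* (Nurr1) and *Nr4a3* (NOR-1). Their 3 mRNAs were followed here in mouse tibialis anterior (TA) muscle, out of 41709 genes listed. They were taken by name, and the family was chosen by its log2FC between the siRNA groups, because all 3 mRNAs were lower after UBA1 knockdown. The difference between the siRNA groups is therefore given for these genes as a description, without a test.

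*Uba1* encodes the main E1 enzyme, which activates ubiquitin for transfer to E2 enzymes and substrates. The study asked what a partial knockdown of it does to skeletal muscle. The TA muscles of 4 male C57BL/6J mice aged 3 months were electroporated with 1500 pmol of siRNA in 30 μl and collected 7 days later. One muscle of each mouse received siRNAs against *Uba1* (siUBA1, n = 4) and the other received non-targeting siRNAs (siNT, n = 4), each a SMARTpool, that is, a mixture of several siRNAs. Same-numbered replicates are the 2 legs of a mouse. All siNT samples carry the letter R in their titles and all siUBA1 samples the letter L, so that the side and the siRNA cannot be told apart. The treatment tags name UBA1 only for replicate 1 and name UBA2, UBA3 and UBA4 for replicates 2 to 4, whereas the titles name UBA1 for all 4 and were used here. Libraries were made from total RNA of whole muscle, so that fewer cells of a type and less RNA per cell cannot be told apart. Levels are in TPM, the share of transcripts that a gene makes up, scaled for transcript length and for library size.

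Unlike most nuclear receptors, the Nr4a proteins act without a known endogenous ligand, and their activity is set largely by how much of them is made. They are immediate-early genes: cAMP, calcium, growth factors and inflammatory signals switch on their transcription within minutes to hours, in part through CREB at cAMP response elements and through MEF2. In skeletal muscle they are induced by β-adrenergic agonists and exercise and regulate genes of glucose and fat use. Nr4a1 and Nr4a2 can bind DNA as monomers, as homodimers or as heterodimers with the retinoid X receptor (RXR), whereas Nr4a3 does not pair with RXR.

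The 3 genes lie on different chromosomes in the GENCODE M39 annotation of GRCm39. *Nr4a1* (ENSMUSG00000023034.9) spans chr15:101151980-101172681 on the plus strand, and its canonical transcript has 7 exons and 2548 bases. *Nr4a2* (ENSMUSG00000026826.15) spans chr2:56996842-57014331 on the minus strand, with 8 exons and 4764 bases. *Nr4a3* (ENSMUSG00000028341.10) spans chr4:48045153-48086447 on the plus strand, with 8 exons and 5722 bases. The coding sequences were 65.0% identical between *Nr4a1* and *Nr4a2*, 63.6% between *Nr4a1* and *Nr4a3* and 67.1% between *Nr4a2* and *Nr4a3*. The longest exact stretch that any pair of canonical transcripts shared was 27 bases, shorter than the 100-base reads.

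Sequence upstream of the RefSeq start sites is shown because the family is known as a target of CREB. The windows were the 250 bases before each start in the RefSeq promoter table (GRCm38.p6), placed on GRCm39 by exact match. Printed are the parts of the windows that lie outside the exons annotated by GENCODE for *Nr4a1*, chr15:101164477-101164656 (plus strand, within the gene, since other transcripts start upstream), and *Nr4a3*, chr4:48045055-48045152 (plus strand). For *Nr4a2*, whose window lies within the first exon of a GENCODE transcript, 30 bases around its closest pair of sites are given, chr2:57014116-57014145 (minus strand). Capitals mark half-sites of the cAMP response element, TGACG or its reverse complement CGTCA.
Nr4a1: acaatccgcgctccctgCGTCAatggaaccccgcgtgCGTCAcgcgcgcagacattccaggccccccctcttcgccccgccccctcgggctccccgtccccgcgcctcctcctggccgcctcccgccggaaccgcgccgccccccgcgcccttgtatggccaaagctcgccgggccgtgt
Nr4a2: gccgggcTGACGgggccgcTGACGcgcttg
Nr4a3: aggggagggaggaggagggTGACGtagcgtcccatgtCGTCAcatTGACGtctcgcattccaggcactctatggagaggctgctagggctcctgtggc

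Each of the 3 whole windows held 4 half-sites, which is 2 beyond those printed for *Nr4a1*, 2 for *Nr4a2* and 1 for *Nr4a3*. Of 32841 RefSeq windows, 17.8% held at least 1 half-site and 0.137% held 4 or more. Half-sites hold a CpG and the windows were rich in G and C (74.4% for *Nr4a1*, 80.0% for *Nr4a2* and 63.6% for *Nr4a3*). Among windows at least as rich in G and C, 0.399%, 0.247% and 0.38% held as many, respectively. At least 1 half-site was found in 62.9% of 35 windows of other immediate-early genes and in 16.4% of 61 windows of other nuclear receptors. The full palindrome TGACGTCA was in none of the 3 windows (1.55% of all windows held it), nor was the CArG box bound by SRF (1.47%). TATAAA, searched on each gene's own strand, was absent too (7.59%). The count depended on the annotated start: before the GENCODE canonical starts there were 2 half-sites for *Nr4a1*, 0 for *Nr4a2* and 3 for *Nr4a3*. Such matches are descriptions of the letters, chosen after the sequences had been seen, and are not evidence of binding.

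*Uba1* mRNA was lower in every siUBA1 muscle than in any siNT muscle. It was 60.6, 59.0, 63.6 and 59.1 TPM in siNT replicates 1 to 4 and 18.1, 6.77, 15.8 and 23.1 TPM in siUBA1 replicates 1 to 4. The log2FC was -1.98 ± 0.29 (SE) with limma's adjusted p of 0.0527, and of 0.0278 with the mouse as a replicate block.

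*Nr4a1*, the most studied of the family in exercised muscle, was at 306.0, 362.7, 302.5 and 335.0 TPM in siNT replicates 1 to 4. In siUBA1 replicates 1 to 4 it was at 206.7, 202.3, 150.3 and 279.0 TPM. The groups did not overlap. Replicate 3 was the lowest siUBA1 muscle and replicate 4 came closest to the siNT range. The mean was 327 ± 28.1 TPM (SD, n = 4) in siNT and 210 ± 52.9 TPM in siUBA1 muscle, or 64.2% of the siNT level. On the log2(TPM + 1) scale, on which all log2FC here are given, this was a difference of -0.67 ± 0.16 (SE).

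*Nr4a2*, best known for its part in dopamine neurons, was expressed at a far lower level. It was at 8.39, 11.04, 6.59 and 7.21 TPM in siNT replicates 1 to 4. In siUBA1 replicates 1 to 4 it was at 2.12, 3.12, 1.24 and 6.01 TPM. The groups again did not overlap, but replicate 4 was only just below the lowest siNT muscle, and replicate 3 was again the lowest. The mean level of *Nr4a2* was 8.31 ± 1.97 TPM (SD, n = 4) in siNT and 3.12 ± 2.07 TPM in siUBA1 muscle, 37.6% of the siNT level, and the log2FC was -1.28 ± 0.31 (SE).

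*Nr4a3*, a strongly exercise-responsive gene in muscle, was at 11.6, 13.7, 17.4 and 18.6 TPM in siNT replicates 1 to 4. In siUBA1 replicates 1 to 4 it was at 2.16, 2.18, 10.4 and 8.21 TPM. The groups did not overlap, and the siUBA1 muscles formed a low pair, replicates 1 and 2, and a higher pair, replicates 3 and 4. The mean level of *Nr4a3* was 15.3 ± 3.23 TPM (SD, n = 4) in siNT and 5.74 ± 4.22 TPM in siUBA1 muscle, 37.5% of the siNT level. Its log2FC, -1.49 ± 0.42 (SE), was the 13th lowest of 11530 genes tested, while *Nr4a2* was the 19th and *Nr4a1* the 95th.

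**Figure D1:**
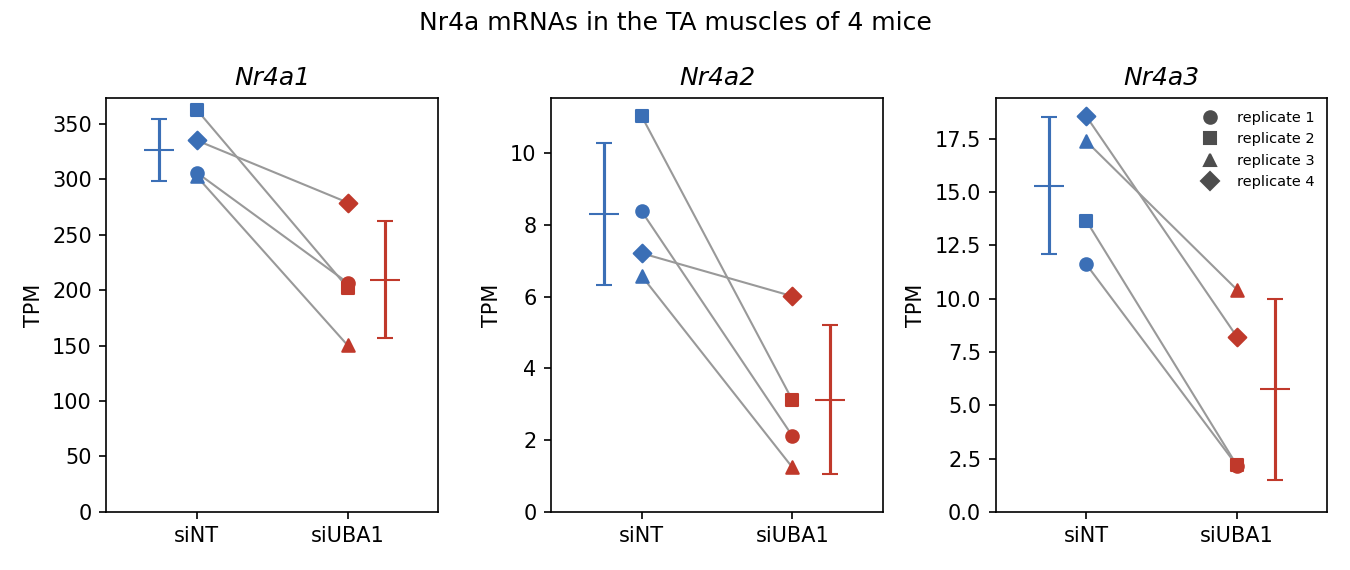
TPM of *Nr4a1*, *Nr4a2* and *Nr4a3* (vertical axes, each from 0) in siNT and siUBA1 TA muscles, with 1 symbol per replicate, grey lines joining the 2 legs of a mouse, and bars for the mean ± SD (n = 4). In all 3 panels every siUBA1 muscle lies below every siNT muscle. Replicate 4 keeps the highest *Nr4a1* and *Nr4a2* levels among siUBA1 muscles, 279.0 and 6.01 TPM, and replicate 3 the highest *Nr4a3* level, 10.4 TPM.

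Within mice, all 3 mRNAs were lower in the siUBA1 leg in 4 of 4 pairs. The log2 differences of replicates 1 to 4 were -0.56, -0.84, -1.005 and -0.26 for *Nr4a1*. They were -1.59, -1.55, -1.76 and -0.23 for *Nr4a2*. They were -2.00, -2.21, -0.69 and -1.09 for *Nr4a3*. *Nr4a1* and *Nr4a2* had the same mice at either end, with replicate 3 the most reduced and replicate 4 the least, whereas for *Nr4a3* replicate 3 was the least reduced. The muscle with the most *Uba1* mRNA left, replicate 4, was thus the one with the smallest difference for *Nr4a1* and *Nr4a2* but not for *Nr4a3*. The muscle with the least, replicate 2, was the most reduced for *Nr4a3* but not for *Nr4a1* or *Nr4a2*. With 4 mice no correlation was computed. Of all genes tested, 2.98% were lower in 4 of 4 pairs and 1.01% had every siUBA1 muscle below every siNT muscle. Since the family was picked for being lower, these shares are given only as background.

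The siUBA1 muscles varied more than the siNT muscles. The SD of log2(TPM + 1) was 0.12 in siNT and 0.36 in siUBA1 muscle for *Nr4a1*, 0.29 and 0.70 for *Nr4a2*, and 0.29 and 0.99 for *Nr4a3*. *Uba1* itself ranged from 6.77 to 23.1 TPM in siUBA1 muscle and from 59.0 to 63.6 TPM in siNT muscle. The part of the unequal knockdown in this spread was not tested.

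The order of the paralogs was the same in nearly all muscles. *Nr4a1* had the highest TPM in 8 of 8, and *Nr4a3* was above *Nr4a2* in 7 of 8, the exception being siUBA1 replicate 2. *Nr4a3* exceeded *Nr4a2* by 1.24 to 2.64 times in siNT muscle, and the ratio ranged from 0.699 to 8.39 in siUBA1 muscle, so that their order there was not larger than the spread. *Nr4a1* made up 93.2 ± 0.583% (SD, n = 4) of the summed family TPM in siNT and 95.8 ± 2.37% in siUBA1 muscle. The summed level was 350 ± 29.7 TPM in siNT and 218 ± 54.7 TPM in siUBA1 muscle. The ratio of *Nr4a1* to *Nr4a3* was 17.4 to 26.5 in siNT and 14.4 to 95.6 in siUBA1 muscle, and these ranges overlapped.

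Likeness between genes was measured as the root mean square difference of log2(TPM + 1) over the 8 muscles, after subtracting each gene's siNT mean. It includes the group difference that chose the family, and is a description. The 6 genes nearest to the mean profile of the family were *Myc* (0.158), *Adamts1* (0.219), *Maff* (0.219), *Fosl2* (0.235), *Tnfaip3* (0.243) and *Socs3* (0.259), against a median of 0.955 over all genes tested. *Myc*, *Maff* and *Fosl2* encode transcription factors, *Adamts1* a secreted metalloprotease, *Tnfaip3* the ubiquitin-editing enzyme A20 and *Socs3* an inhibitor of cytokine signalling. The paralogs lay farther from their own mean than these genes, which were picked as the nearest of all genes tested. They were at 0.407 for *Nr4a1*, 0.339 for *Nr4a2* and 0.553 for *Nr4a3*. Placed among the tested genes outside the family, these distances ranked 40, 20 and 106 from the nearest. *Nr4a1* and *Nr4a2* were 0.505 apart, *Nr4a1* and *Nr4a3* 0.909, and *Nr4a2* and *Nr4a3* 0.822.

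Taken singly, a comparison added after the values had been seen, each paralog had other neighbours. *Nr4a1* was nearest to *Nfkbia* (0.122), which encodes the NF-κB inhibitor IκBα, and to *Klf4* (0.138). *Nr4a2* was nearest to *Plk3* (0.1003), a stress-responsive kinase, and next to *Maff* (0.210) and *Sik1* (0.222). *Nr4a3* had no gene so close: its nearest were *Irs2* (0.546), an insulin receptor substrate, and *Icam1* (0.548), an endothelial adhesion molecule. In siUBA1 replicates 3 and 4 *Nr4a3* sat above its 4 nearest genes or among them, and in replicates 1 and 2 below them.

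**Figure D2:**
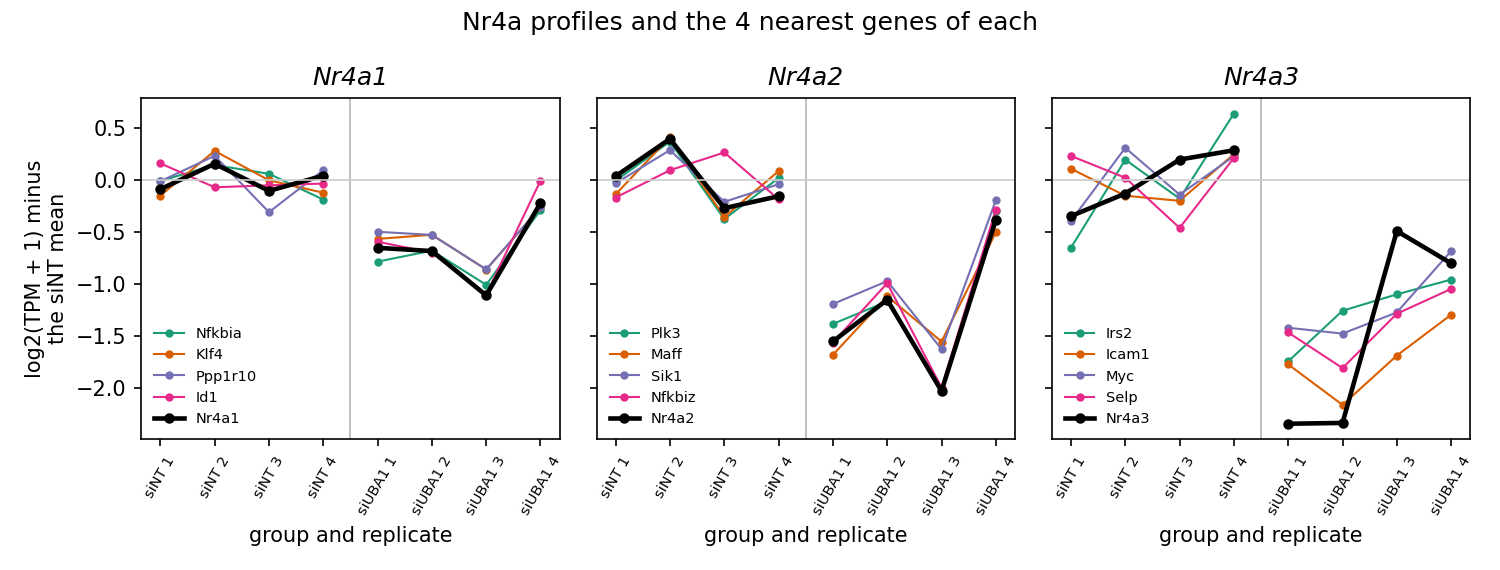
log2(TPM + 1) minus the siNT mean (vertical axis) in the 8 muscles (horizontal axis) for each Nr4a gene (black) and the 4 nearest genes outside the family (colours); lines only join the points of a gene within a group, and replicates have no order. *Nfkbia* at 0.122 tracks *Nr4a1* and *Plk3* at 0.1003 tracks *Nr4a2*, whereas the nearest gene to *Nr4a3*, *Irs2*, is 0.546 away.

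The other nuclear receptors held no gene that passed either rule, as was true of nearly all genes. Of 46, 29 were tested. Limma called 0 of them at an adjusted p under 0.05, beside 0.026% of all genes. With the replicate block it also called 0, beside 0.494%. By the second rule used here, a raw limma p under 0.05 and a log2FC past 0.58 in either direction, again 0 were called (1 without siNT replicate 4 and 1 without siUBA1 replicate 4), against 0.833% of all genes lower and 0.442% higher (1.27% together). At an unadjusted p under 0.05 alone, 5 (17.2%) were higher and 0 lower, beside 16% and 1.98% of all genes. The Kruskal-Wallis test called 0 of all genes after adjustment, but its smallest p with 4 against 4 is 0.0209, which left it little room to call any. Their log2FC had a median of 0.15, beside 0.11 for all genes tested, and 26 of 29 (89.7%) were above 0, beside 81.8% of all genes (51.5% with median-ratio scaling).

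The possible dimer partners of Nr4a1 and Nr4a2 were measured in every muscle. *Rxra* averaged 53.0 ± 3.40 TPM (SD, n = 4) in siNT and 58.8 ± 6.07 TPM in siUBA1 muscle, with a log2FC of 0.14 and limma's adjusted p of 0.385. *Rxrg*, the RXR enriched in muscle, averaged 40.1 ± 4.14 and 38.6 ± 3.75 TPM, with a log2FC of -0.05 and limma's adjusted p of 0.756. *Rxrb* averaged 16.5 ± 1.23 and 17.6 ± 1.32 TPM, with a log2FC of 0.09. With median-ratio scaling, which lowers the median of all genes by a similar amount, the log2FC was 0.03 for *Rxra*, -0.17 for *Rxrg* and -0.02 for *Rxrb*. In level per length, *Nr4a1* ranked first of all 49 nuclear receptors in both groups. In siNT muscle it was 3.56 times as high as the next, the clock receptor *Nr1d1* at 91.8 ± 21.2 TPM, and 6.17 times as high as *Rxra*. *Esrra*, a regulator of mitochondrial genes, stood at 40.8 ± 3.19 TPM.

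**Figure D3:**
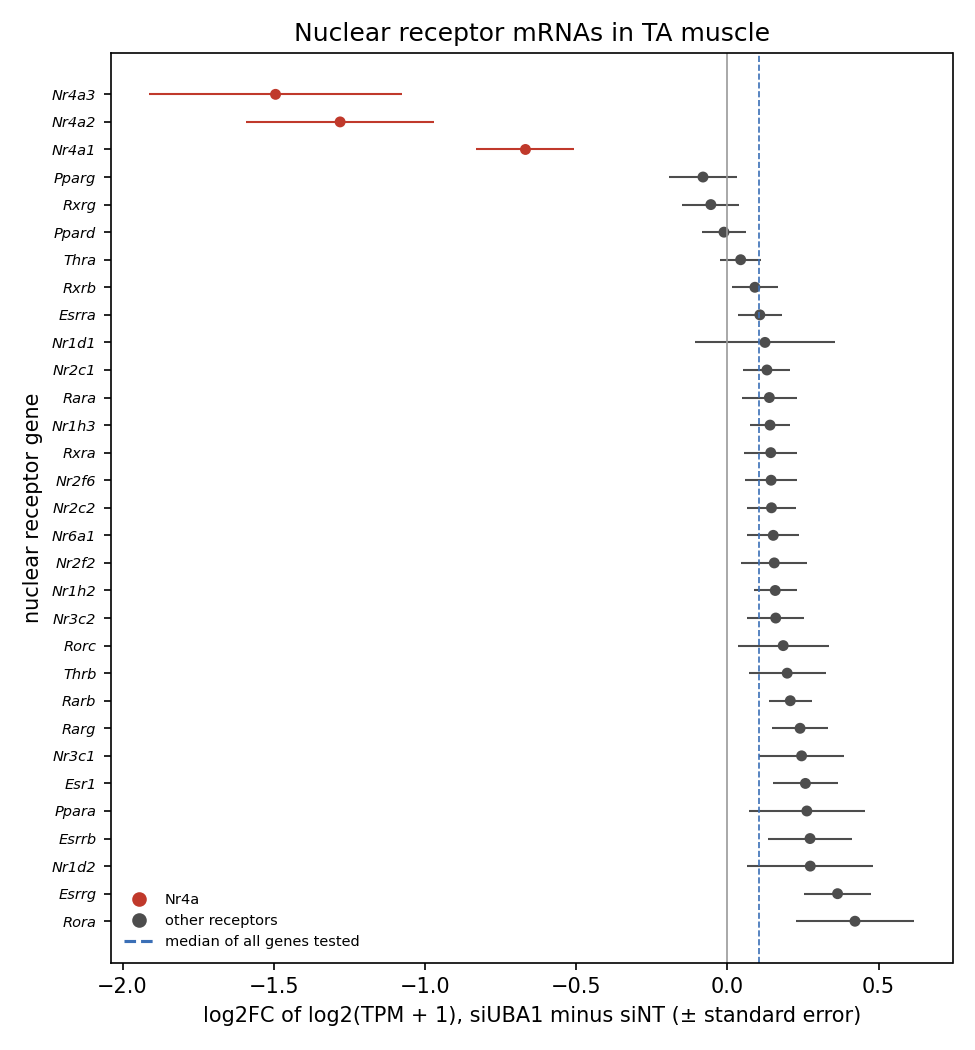
log2FC of log2(TPM + 1), siUBA1 minus siNT, with its standard error (horizontal axis) for 31 nuclear receptor genes (vertical axis), Nr4a genes in red. The dashed line is the median of all genes tested, 0.11. The 28 other receptors drawn lie between -0.08 and 0.42, and the Nr4a genes between -1.49 and -0.67, the difference for which they were picked.

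Genes that act upstream of *Nr4a* transcription were mostly near the median of all genes, with 1 exception. This list of 26 holds cAMP and protein kinase A genes, CREB and its coactivators, the salt-inducible kinases that restrain those coactivators, MEF2 factors, the class IIa HDACs that repress MEF2, and the serum response factor gene *Srf*. Of 23 tested, 1 was lower and 0 higher by the second rule, beside 0.833% and 0.442% of all genes. At an adjusted p under 0.05 limma called 0, beside 0.026% of all genes, whereas 2 were lower and 3 higher at an unadjusted p under 0.05, beside 1.98% and 16% of all genes. Their median log2FC was 0.11. The 2 lower genes were *Sik1* and *Srf*, the latter with a log2FC of -0.18 and limma's adjusted p of 0.267, named after its value was seen. The gene that passed the second rule was *Sik1*, itself a known CREB target and a feedback inhibitor of the CREB coactivators, at 33.4 ± 5.13 TPM (SD, n = 4) in siNT and 17.3 ± 8.09 TPM in siUBA1 muscle. Its log2FC was -0.998 ± 0.26 (SE) with limma's adjusted p of 0.157. Like *Nr4a2*, *Sik1* was lowest in siUBA1 replicate 3, at 10.04 TPM, and highest in replicate 4, at 28.8 TPM. The most abundant members were *Prkaca*, the catalytic subunit of protein kinase A, and *Mef2d* and *Mef2c*. Their log2FC were 0.04, -0.03 and 0.04, with limma's adjusted p of 0.832, 0.869 and 0.858, and their signs changed with the scaling or the muscles used, as given in the closing section.

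Genes that have been linked to Nr4a receptors in muscle, most of them of glucose and fat use, did not pass either rule. That was true of nearly all genes (1.27% passed the second rule and 0.026% the adjusted p). *Mstn* and *Cav3* are also in the list. All 17 of this list were tested, and limma called 0 at an adjusted p under 0.05 while 1 was higher and 0 lower at an unadjusted p under 0.05, beside 16% and 1.98% of all genes. The median log2FC was 0.06 and the range -0.09 to 0.39. The most abundant were *Eno3* (muscle enolase), *Pygm* (glycogen phosphorylase) and *Pgam2* (muscle phosphoglycerate mutase), with log2FC of -0.09, -0.04 and -0.07. Without the replicate block, the gene higher at an unadjusted p was *Ppargc1a*, the coactivator PGC-1α. It was at 9.10 ± 1.56 TPM (SD, n = 4) in siNT and 12.1 ± 0.83 TPM in siUBA1 muscle. Its log2FC was 0.39 with limma's adjusted p of 0.168, and it was named after its value was seen. With the replicate block limma again called 0 genes of the list at an adjusted p under 0.05. Like *Ppargc1a*, *Ucp3* (log2FC 0.37) was higher in 4 of 4 pairs, and it too was named after its value was seen. Limma's p with the block was 0.00087 for *Ucp3* (0.0679 adjusted) and 0.0060 for *Ppargc1a* (0.105 adjusted).

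The other immediate-early genes, the class to which the Nr4a genes belong by their induction, were mostly below their siNT level. Of 34 listed, 33 were tested, and 13 were lower and 0 higher by the second rule, 39.4% beside 0.833% of all genes. The count was 9 without siUBA1 replicate 3 and 21 without siUBA1 replicate 4. Without the block limma called 0 at an adjusted p under 0.05, where 3 genes (0.026%) were called in all. With the replicate block it called 3 of them, all lower, of 57 genes (0.494%) in all. In 9 every siUBA1 muscle was below every siNT muscle, beside 1.01% of all genes. Their median log2FC was -0.56, and 29 of 33 were below 0, beside 18.2% of all genes. That last share depends on the scaling: 81.8% of all genes were above 0 here and 51.5% with median-ratio scaling. At an unadjusted p under 0.05 alone, 17 of the list were lower and 1 higher, beside 1.98% and 16% of all genes. The higher gene was *Dusp6*, with a log2FC of 0.36 and limma's adjusted p of 0.177, named after its value was seen.

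The 6 largest differences that passed the second rule were those of *Atf3* (-2.23), *Csrnp1* (-1.45), *Maff* (-1.22), *Myc* (-1.21), *Btg2* (-1.04) and *Fosl2* (-0.98). *Atf3*, a stress-induced bZIP factor, was at 116 ± 35.1 TPM (SD, n = 4) in siNT and 25.4 ± 14.1 TPM in siUBA1 muscle, with limma's adjusted p of 0.0575, and of 0.00663 with the replicate block. The block also took *Myc* (adjusted p of 0.0268) and *Maff* (adjusted p of 0.0359) past the threshold. The Nr4a differences lay inside the range of this list. Of its tested genes 1, *Atf3*, had a log2FC below that of *Nr4a3*, and *Fos* and *Egr1*, the best-known of the class, did not pass. *Fos* was at 309 ± 120 and 235 ± 107 TPM and *Egr1* at 208 ± 71.2 and 155 ± 56.0 TPM, with log2FC of -0.43 each and limma's adjusted p of 0.481 and 0.420. Both were named after their values were seen.

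**Figure D4:**
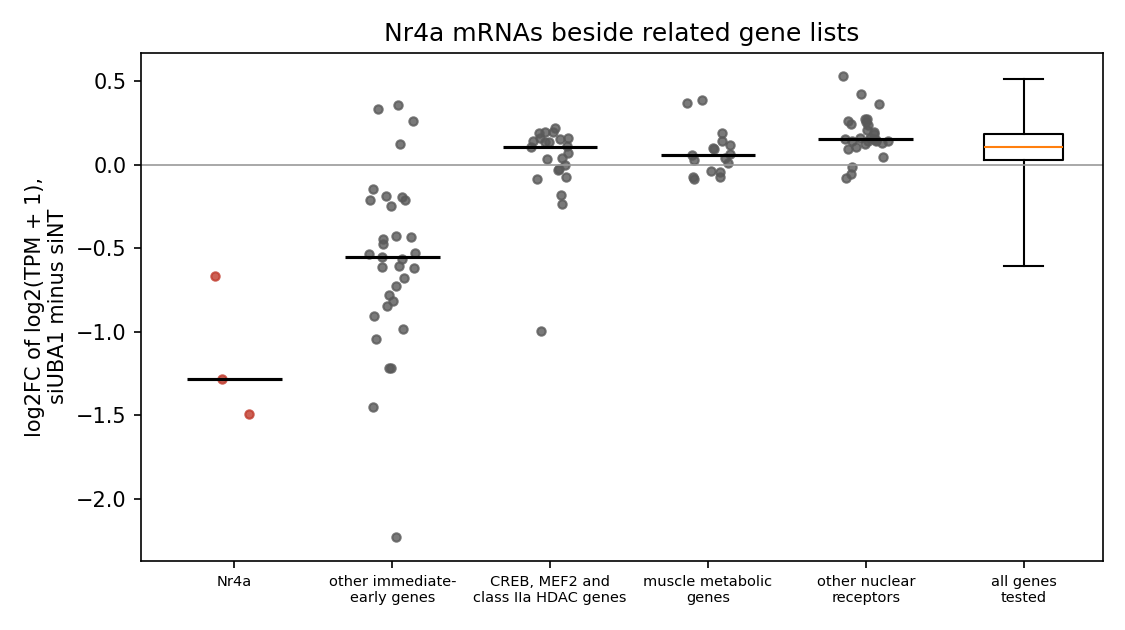
log2FC of log2(TPM + 1), siUBA1 minus siNT (vertical axis), for the Nr4a genes (red) and the tested genes of 4 related lists (grey, spread sideways at random), with medians as black lines; the box shows all 11530 genes tested, with its median, quartiles and whiskers to the 1st and 99th percentiles. The immediate-early genes centre on -0.56 and the other 3 lists between 0.06 and 0.15, close to the median of all genes, 0.11.

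Genes with as many half-sites before their start as the Nr4a genes were near the median of all genes. Outside the family, 34 tested genes had a RefSeq window with 4 or more half-sites. Their median log2FC was 0.09, beside 0.11 for the 9040 tested genes with a window, and their log2FC ranged from -0.55 to 0.34. By limma, 1 of the 34 (2.94%) was lower and 10 (29.4%) higher at an unadjusted p under 0.05, beside 1.91% and 16.1% of the 9040. By the second rule 0 passed, beside 0.719% lower and 0.387% higher of the 9040. The share lower by the second rule was 0.561% of 6237 genes without a half-site, 0.926% of 2052 with 1, 1.84% of 598 with 2 and 0 of 119 with 3. These shares were not tested against each other, and the motif was chosen after the sequences were seen.

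The 3′ untranslated regions of the canonical transcripts, which can carry AU-rich elements that speed mRNA decay, were also searched for the pentamer ATTTA. There were 3 in the 547 bases of *Nr4a1*, 3 in the 1326 bases of *Nr4a2* and 5 in the 3095 bases of *Nr4a3*. Of the 20854 protein-coding genes with such a region, 38.6% had 3 or more and 23.9% had 5 or more. Per length, *Nr4a1* had 5.48 per kb, a density that 4.39% of genes with 200 bases or more of this region reached, while 34.0% reached that of *Nr4a2* (2.26 per kb) and 47.5% that of *Nr4a3* (1.62 per kb).

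The siRNA groups were compared for marker genes of the cells in a TA muscle by exact two-sided permutation tests of their summed TPM, in which 4 against 4 cannot go below p = 0.0286. The 8 myofiber markers summed to 110050 to 118765 TPM in siNT and 86276 to 121628 TPM in siUBA1 muscle, and all 8 were detected, as the tissue label requires. The 7 macrophage markers summed to 123 to 395 and 118 to 414 TPM, the 6 endothelial markers to 111 to 154 and 125 to 151 TPM, and the 6 fibroblast markers to 435 to 924 and 574 to 1144 TPM. The smallest exact permutation p of the 10 cell types was 0.286 (0.864 adjusted), for the fibroblast and satellite cell lists. These tests were unpaired. Within mice, the fibroblast sum was higher in the siUBA1 leg in 4 of 4 pairs, with means of 653 ± 220 TPM (SD, n = 4) in siNT and 843 ± 263 TPM in siUBA1 muscle. Transcripts of the mitochondrial genome made up 43.7 ± 1.5% (SD, n = 4) of TPM in siNT and 44.2 ± 5.08% in siUBA1 muscle. The part of the cell makeup in the Nr4a levels was not tested.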

How the data were processed

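RNA of 8 TA muscles, 4 per siRNA group from 4 mice, was sequenced as 100-base reads and mapped by the authors to GRCm39 in CLC Genomics Workbench. The deposited values are TPM per gene for 41709 genes. The annotation, strand setting and treatment of reads with several hits are not given in the sources used here. TPM keep no depth, so no counting interval is given.

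Genes that reached 1 TPM in 4 muscles or more, 11530 in number, were fitted with limma 3.58.1 (R 4.3.3; lmFit, eBayes with trend) on log2(TPM + 1), with Benjamini-Hochberg adjustment over all of them. This pseudocount understates the change of low genes. A gene was called at an adjusted p under 0.05, and by a second rule at a raw p under 0.05 and a log2FC past 0.58 either way. The script was tested on simulated data. Groups came from the sample titles. Replicates are muscles of separate mice, and same-numbered muscles are legs of 1 mouse. Deviations from the group means correlated within mice at -0.00037, 0.20, 0.58 and 0.54 for replicates 1 to 4. The study used an unpaired Kruskal-Wallis test on log TPM. Here limma without a block was used in its place, since that test can hardly pass adjustment with 4 against 4, and a fit with the mouse as a block is the alternative. It changed the calls of *Uba1*, *Atf3*, *Myc*, *Maff*, *Adamts1* and *Socs3* among the genes named.

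The genes and lists were chosen with earlier results of these data known. Named were the 3 Nr4a genes, *Uba1*, up to 6 genes per list with the largest log2FC past the second rule (where fewer than 3 passed, the 3 most abundant and any RXR), and the 6 genes nearest to the mean Nr4a profile. Others are marked as named after their values were seen. Alternatives were a pseudocount of 0.1, no filter, a mean of 5 TPM or more, median-ratio scaling, quantile normalization, TPM without mitochondrial genes, the block, the Kruskal-Wallis test, and leaving out each of the 8 muscles. Sequences were searched with Python 3.11.15 and aligned with Biopython 1.88. Values of 1 other nuclear receptor are not reported here.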

Additional observations from a re-analysis of the deposited data

Results flagged for a closer look

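In 70 groups of 4 muscles (the named genes and summed markers in each siRNA group), the highest or lowest muscle was set against the others by Dixon's test, for which chance alone gives 3.5. There were 2 such values, both in siUBA1 replicate 4 and both in genes near the mean Nr4a profile. *Adamts1* was at 34.3 TPM there and at 20.1 to 22.3 TPM in the other siUBA1 muscles. *Socs3* was at 20.1 TPM there and at 10.1 to 11.4 TPM in the other siUBA1 muscles. This muscle also had the most *Uba1* mRNA of the siUBA1 group, 23.1 TPM, and the highest *Nr4a1* and *Nr4a2* levels.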

How the results depend on the processing

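The log2FC of the 3 Nr4a genes kept their direction in all 16 alternatives, at -0.82 to -0.52 for *Nr4a1*, -1.58 to -1.03 for *Nr4a2* and -1.83 to -1.21 for *Nr4a3*. Since the genes were picked for this direction, that is no sign of stability. The number of genes called at an adjusted p under 0.05 moved from 3 to 11 under the stricter filter (mean TPM of at least 5), 23 after median-ratio scaling, 28 after quantile normalization, 14 without mitochondrial genes, 57 with the replicate block and 70 with the replicate block and median-ratio scaling. It was 2 (without siNT replicate 2) to 39 (without siUBA1 replicate 4) with a muscle left out. The Kruskal-Wallis test called 0, with 2210 genes at an unadjusted p under 0.05. By the second rule 96 genes were lower and 51 higher. The number higher was 151 with a pseudocount of 0.1, 20 under the stricter filter, 30 after median-ratio scaling (137 lower), 28 with quantile normalization (133 lower), 100 without mitochondrial genes (113 lower) and 51 to 82 with a muscle left out. The number lower was 154 with the replicate block and median-ratio scaling and 79 to 118 with a muscle left out. Other nuclear receptors called numbered 1 with a pseudocount of 0.1 and 0 to 1 with a muscle left out. Immediate-early genes called numbered 20 with the replicate block and median-ratio scaling and 9 to 21 with a muscle left out. The median log2FC of all genes, 0.11, was 0.0037 with median-ratio scaling and 0.012 with quantile normalization. Genes near 0 changed sign. With median-ratio scaling, with and without the replicate block, *Esrra* was at -0.0094, *Rxrb* at -0.022, *Prkaca* at -0.080 and *Mef2c* at -0.083. With quantile normalization *Prkaca* was at -0.00020 and *Mef2c* at -0.028. With a muscle left out, *Nr1d1* ranged from -0.058 to 0.33, *Prkaca* from -0.018 to 0.096, *Mef2d* from -0.060 to 0.022, *Mef2c* from -0.036 to 0.11, *Pygm* from -0.086 to 0.017 and *Pgam2* from -0.16 to 0.0018. The cause of these changes was not tested. TPM hold no depth, so the counting error of *Nr4a2* and *Nr4a3*, the lower of the family, is unknown.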
